A study of Mus musculus with 6 samples.

Results

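Cohesin is a ring-shaped protein complex that holds sister chromatids together, and the transcripts of its subunits and of its loader were followed here in mouse oocytes with and without the RNA ligase gene Rtcb. The group comprises 10 genes, found by exact symbol among the 23235 genes of the deposited expression table: Smc1a, Smc1b, Smc3, Rec8, Rad21, Rad21l, Stag1, Stag2, Stag3 and Nipbl. Polyadenylated RNA was measured in 6 libraries, 3 labelled WT and 3 labelled Rtcb knock-out (KO below). All 6 came from C57BL/6 mice, from fully-grown oocytes at the germinal vesicle (GV) stage, which are still arrested in the first meiotic prophase, collected 44-48 h after PMSG, a gonadotropin that makes follicles grow. Each library was made from 10 pooled oocytes with Smart-seq2, a method that amplifies full-length cDNA from single cells or a few cells, and the sample names carry the tag 6W. The sources used here do not say how or in which cells Rtcb was deleted. They also do not tie the 3 libraries of a genotype to separate animals, so the p-values below reflect library-to-library spread only, which could be technical.

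The ring is built from an SMC1 and an SMC3 protein, closed by a kleisin subunit (RAD21 in mitosis) and bound by a STAG protein. Germ cells make additional versions for meiosis: SMC1B beside SMC1A, REC8 and RAD21L beside RAD21, and STAG3 beside STAG1 and STAG2. In oocytes, the cohesin that joins chromosomes is loaded before birth and must last until ovulation, and loss of REC8-cohesin with age is known for its link to chromosome segregation errors.

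The genotype labels were checked first. Rtcb, listed under its older symbol D10Wsu52e, stood at 136, 133 and 113 FPKM (fragments per kilobase of transcript, scaled to sequencing depth) in WT and at 3.82, 2.62 and 2.49 FPKM in KO. All 10 oocyte markers were above a mean of 1 FPKM, with summed levels of 27582 to 30624 in WT and 18727 to 20044 in KO. Of 13 granulosa or cumulus cell markers, 6 were above a mean of 1 FPKM and none was at 0, with sums of 57.0 to 64.9 FPKM in WT and 45.6 to 59.4 in KO. Cyp19a1 made up most of the WT sums, at 35.6, 39.8 and 37.2 FPKM, and stood at 22.2, 19.6 and 17.5 FPKM in KO. Of 8 markers of theca, stroma or blood, 1 was above that level and 3 (Col3a1, Hbb-b1 and Hba-a1) were at 0 in every library, with sums of 30.3 to 47.2 FPKM in WT and 16.7 to 19.6 in KO. Nearly all of these sums was Pecam1, at 46.7, 38.1 and 30.2 FPKM in WT and 16.7, 19.4 and 18.9 FPKM in KO. The part of other cells in the results below was not tested. Summed FPKM per library ran from 1267730 to 1347014 in WT and from 943926 to 999507 in KO, and the read depth is unknown because the table holds no counts. The values carry 1 constant factor per genotype, such that every KO value is scaled by 0.667 (-0.58 on the log2 scale) against WT. Over all 12029 genes tested, the median log2 fold change was -0.47, and it was 0.043 with those factors removed. Each tested cohesin gene is therefore given on both scales, and ratios of genes within a library, which no scaling of a library can change, are given beside them.

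In KO oocytes 5 cohesin genes were lower on the deposited scale, led by the meiotic SMC1 gene Smc1b at 4.82-fold, while the mitotic kleisin Rad21 was not called lower under any setting tried. Of the 10 genes, 9 reached the mean of 1 FPKM required for the test. Smc1b, Smc1a, Smc3, Stag3 and Nipbl were lower in KO (limma on log2(FPKM + 1), adjusted p under 0.05), none was higher, and Rad21, Rad21l, Stag1 and Stag2 did not pass. Over all tested genes 54.0% were called lower and 9.29% higher, so 5 of 9 lower is close to the background share of genes lower, and the median fold change of the 9 members was -0.64 on the log2 scale against -0.47 for all genes. At an unadjusted p under 0.05 the same 5 members were lower and 0 were higher. The share of all genes at that looser cut was not taken, so this count is no added support. In all, 6 members (the 5 called and Stag1) had all KO libraries below all WT libraries, against 57.5% of all tested genes, and 0 had all KO libraries above, against 10.2%. With the genotype factors removed, 1 member was lower (Smc1b) and 1 was higher (Rad21), against 18.0% and 25.7% of all genes, and the median of the 9 members was -0.056. In these pooled oocytes, fewer cells contributing RNA and less RNA per cell cannot be told apart.

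**Figure D1:**
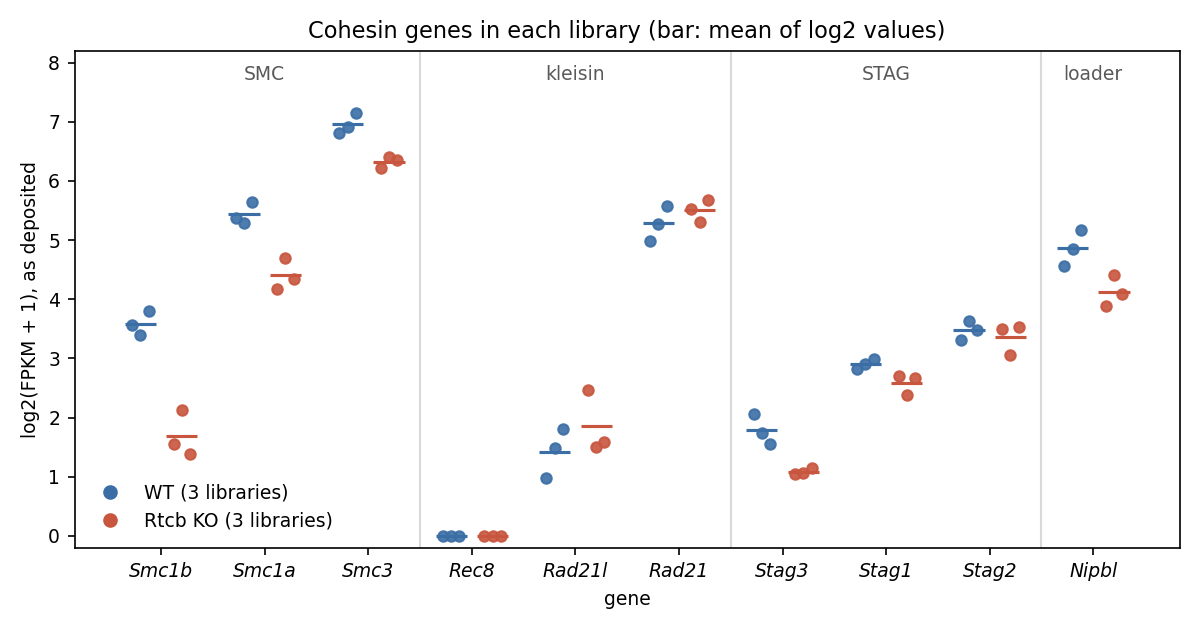
Deposited levels of the 10 cohesin genes as log2(FPKM + 1) in each of the 3 WT and 3 KO libraries, 1 point per library, with a bar at the mean of each group's log2 values. The Smc1b points of the genotypes lie far apart, with WT between 9.55 and 12.9 FPKM and KO between 1.61 and 3.35, while those of Rad21 overlap and Rec8 lies at 0.

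Smc1b, the meiosis-specific SMC1 gene, lies on chromosome 15 and has 25 exons in its longest coding transcript of 4047 bases (GENCODE vM21). Its levels were 10.8, 9.55 and 12.9 FPKM in the WT libraries and 1.93, 3.35 and 1.61 FPKM in the KO libraries. The highest KO library thus lay well below the lowest WT library. The means were 11.1 ± 1.71 FPKM in WT and 2.30 ± 0.926 FPKM in KO (SD, n = 3 each), a 4.82-fold lower mean. The log2 fold change was -1.90 (SE 0.22, limma adjusted p = 0.000282), which is -1.43 relative to the median of all genes. Only 79 of the 12029 tested genes (0.657%) had a lower fold change. With the genotype factors removed the mean was 3.22-fold lower and the log2 fold change was -1.29 (adjusted p = 0.00247). Smc1b passed under every scaling, pseudocount and left-out library at which it was tested; its fold change without any 1 library lay between -2.12 and -1.75.

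Sequence upstream of Smc1b is shown because it carries a run of letters that recurs near the starts of other members. In the RefSeq table of GRCm38.p6, 95 bases at chr15:85131965-85132059 (minus strand) lie upstream of the start of Smc1b, towards that of its divergent neighbour Ribc2. Capitals mark TTCCCGC, the core of E2F-type sites, and TCTCGCGA with the 2 bases that follow it, a palindromic element of many housekeeping promoters:
Smc1b: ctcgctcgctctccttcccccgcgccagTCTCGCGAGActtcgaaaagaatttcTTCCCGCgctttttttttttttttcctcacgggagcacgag

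Of the 10 members, 7 had an entry in that table, whose windows run from 250 bases before to 50 bases after a start. TTCCCGC, searched on both strands, occurred in 4 of the 7 windows (Smc1b, Stag3, Stag1 and Smc1a) and in 4.60% of all 32851 windows. Those windows include genes not tested here, and 841 of the 8495 tested genes with a window carried it, a larger share. It began 48, 3 and 16 bases before the start of Smc1b, Stag3 and Stag1 and 39 bases after that of Smc1a, in each case on the strand of the gene. The stretches around it are chr15:85131989-85132015 (minus strand), chr5:138280496-138280522 (plus), chr9:100643422-100643448 (plus) and chrX:152016456-152016477 (plus), with TTCCCGC in capitals:
Smc1b: aaagaatttcTTCCCGCgctttttttt
Stag3: atcccgtgccTTCCCGCgtttttttct
Stag1: aaggccacgtTTCCCGCgccgctgctg
Smc1a: actgcgctatTTCCCGCgcggg

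The longer element TCTCGCGA was added to the search after these sequences had been seen. It occurred in 2 of the 7 windows, those of Smc1b and Stag3, and in 0.995% of all windows. Of the 8495 tested genes with a window, 223 carried it, again a larger share. The stretches are chr15:85132014-85132041 (minus strand) and chr5:138280428-138280455 (plus), and the capitals run on over the palindrome in Smc1b:
Smc1b: cccgcgccagTCTCGCGAGActtcgaaa
Stag3: ctgcgccaagTCTCGCGAcacttctcag

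The matches describe letters in these windows and not bound sites. Among tested genes with TTCCCGC in the window (841 genes), the median log2 fold change was -0.47 and 55.5% were lower. Among those with TCTCGCGA (223 genes), it was -0.52 and 58.7% were lower. All 8495 tested genes with a window had a median of -0.49 and 55.6% lower, so carriers of either motif lay close to the rest. In all, 9 motifs were searched. GATTGG was found in Rec8 and Smc1a (16.1% of all windows), CACGCG in Smc1a, Stag1 and Stag3 (9.27%) and CACGTG in Stag3 (7.15%), while GGCGGGA, ATTTGCAT, TGACGTCA and CTCAGGGA were in no member's window.

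Smc1a, the SMC1 gene of dividing somatic cells, is X-linked and was the more abundant SMC1 transcript in every library. It measured 40.4, 38.1 and 49.0 FPKM in WT and 17.2, 25.0 and 19.3 FPKM in KO. All 3 KO libraries lay below the WT range, and the mean went from 42.5 ± 5.74 to 20.5 ± 4.05 FPKM (SD, n = 3 each), a 2.07-fold lower mean. The log2 fold change was -1.03 (SE 0.16, limma adjusted p = 0.00098). Removing the genotype factors took it to -0.45 with an adjusted p of 0.0509, and that was the alternative under which Smc1a no longer passed.

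Smc3 encodes the SMC subunit that mitotic and meiotic rings share, and it was the most abundant member in all 6 libraries. Its levels were 111, 119 and 141 FPKM in WT and 73.2, 83.8 and 80.8 FPKM in KO, without overlap. The mean was 1.57-fold lower in KO, at 79.3 ± 5.48 against 124 ± 15.5 FPKM (SD, n = 3 each), with a log2 fold change of -0.64 (SE 0.11, limma adjusted p = 0.00179). The change was close to that of all genes, at -0.17 relative to their median, and with the genotype factors removed it was -0.056 (adjusted p = 0.709). Smc3, Stag3 and Nipbl passed on the deposited scale and under none of the 3 other scalings tried.

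**Figure D2:**
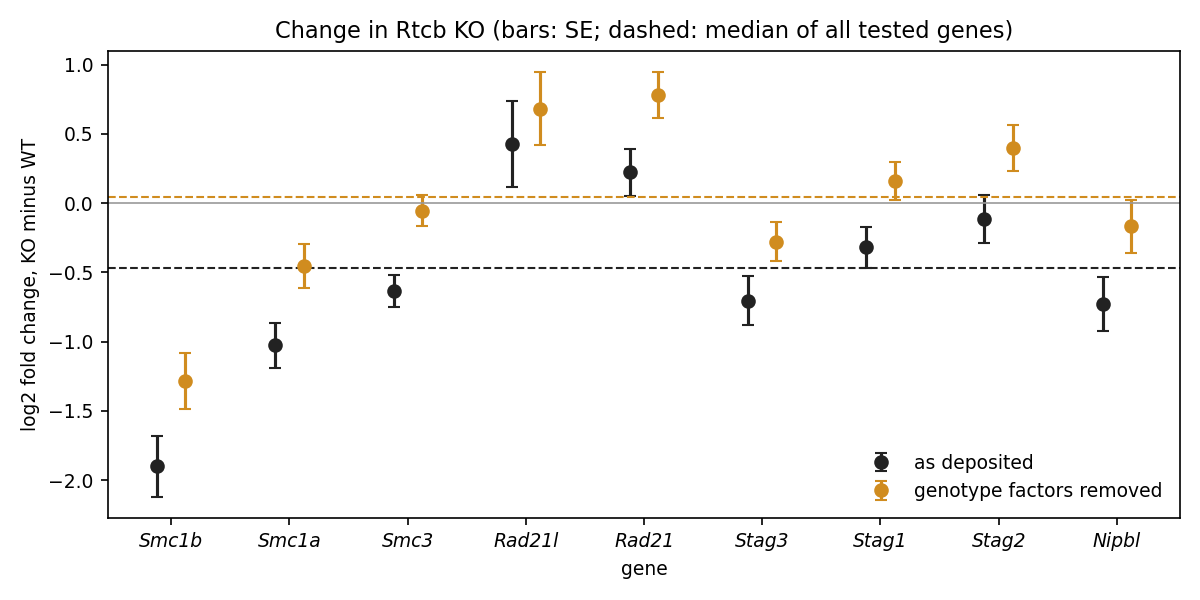
Log2 fold change of KO over WT on log2(FPKM + 1) for the 9 tested cohesin genes, as deposited and with the genotype factors removed; bars are standard errors and lines mark the medians over all tested genes. Smc1b is the lowest on both scales (-1.90 and -1.29), and Rad21 is the only member called higher once the factors are removed (0.78).

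Of the kleisin genes, only Rad21 was well above the level required for the test, and it was not called lower as the SMC genes were. Kleisin and SMC genes were not compared by a test. Rec8, the kleisin that joins sister chromatids in meiosis, was listed at 0 in all 6 libraries, so no fold change and no ratio to Rad21 could be formed. A listed 0 can be an absent transcript or a failed estimate, which this table cannot tell apart. None of 77 ribosomal protein genes was at 0 in every library, while 4682 genes of the table were. Rad21, the mitotic kleisin, measured 30.8, 37.8 and 46.9 FPKM in WT and 45.3, 38.4 and 50.4 FPKM in KO. The groups overlapped, with means of 38.5 ± 8.03 and 44.7 ± 5.98 FPKM (SD, n = 3 each), and the log2 fold change of 0.22 (SE 0.17) did not pass (limma adjusted p = 0.274). On the scale without the genotype factors Rad21 was 1.74-fold higher in KO, with a log2 fold change of 0.78 (adjusted p = 0.00763), and it also passed as higher when libraries were set to equal totals or scaled by median ratios. Rad21l, the other meiotic kleisin, was near the level required for the test, at 0.975, 1.80 and 2.50 FPKM in WT and 4.53, 1.82 and 2.02 FPKM in KO. Its KO mean rests largely on the first KO library, and the log2 fold change of 0.43 (SE 0.31, limma adjusted p = 0.255) did not pass. With the factors removed its mean was 2.38-fold higher in KO, without overlap, at a log2 fold change of 0.68 that did not pass either (adjusted p = 0.0676). Values are smaller once the factors are divided out, while 1 FPKM is still added. Log2 changes of genes this low therefore shrink more on that scale. How many of all genes did not overlap on it was not counted.

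Among the STAG genes, Stag3, the meiotic one, was lower in KO. It measured 3.18, 2.36 and 1.93 FPKM in WT and 1.06, 1.08 and 1.21 FPKM in KO. The KO libraries were tightly grouped below the WT libraries, with means of 1.12 ± 0.0802 and 2.49 ± 0.635 FPKM (SD, n = 3 each), a 2.23-fold lower mean. The log2 fold change was -0.71 (SE 0.18, limma adjusted p = 0.00918) on the log2(FPKM + 1) scale, which understates the change of a gene this low. It was -0.24 relative to all genes, and with the factors removed it was -0.28 (adjusted p = 0.141). The mean was then 1.49-fold lower, and the added 1 FPKM weighs more on those smaller values.

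Stag1 and Stag2, the STAG genes of somatic cells, did not pass. Stag1 measured 6.05, 6.47 and 6.95 FPKM in WT and 5.49, 4.22 and 5.36 FPKM in KO, so the groups did not overlap, but the log2 fold change of -0.32 (SE 0.15) had a limma adjusted p of 0.0926. Stag2 measured 8.88, 11.4 and 10.2 FPKM in WT and 10.4, 7.32 and 10.6 FPKM in KO. Its groups overlapped, with a log2 fold change of -0.11 (SE 0.17, limma adjusted p = 0.589). The direction of both was not stable: with the genotype factors removed, Stag1 stood at 0.16 and Stag2 at 0.40, and without the second KO library Stag2 stood at 0.042.

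Nipbl encodes the loader that places cohesin on DNA. It measured 22.6, 27.9 and 35.1 FPKM in WT and 13.8, 20.4 and 16.03 FPKM in KO. The highest KO library was a little below the lowest WT library, and the mean went from 28.5 ± 6.30 to 16.7 ± 3.36 FPKM (SD, n = 3 each), 1.71-fold lower. The log2 fold change was -0.73 (SE 0.19, limma adjusted p = 0.0117), and -0.17 (adjusted p = 0.497) with the factors removed.

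Ratios within a library compare the meiotic with the mitotic genes free of any scaling. Smc1b per Smc1a was 0.267, 0.251 and 0.264 in WT and 0.113, 0.134 and 0.0836 in KO, 2.41-fold lower (-1.27 on the log2 scale). Put as a share, Smc1b made up 20.7% ± 0.549 of the SMC1 transcripts in WT and 9.89% ± 2.07 in KO (SD, n = 3 each). Smc1b per Smc3 was 0.0968, 0.0800 and 0.0914 in WT and 0.0264, 0.0400 and 0.0200 in KO, 3.22-fold lower (-1.69 on the log2 scale). Both ratios separated the genotypes by more than the spread among libraries of either.

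The STAG ratios moved the same way with less room between the groups. Stag3 per Stag2 was 0.358, 0.207 and 0.188 in WT and 0.102, 0.148 and 0.114 in KO, 2.004-fold lower (-1.003 on the log2 scale, -0.72 without the first WT library). Stag3 per Stag1 was 0.525, 0.364 and 0.277 in WT and 0.193, 0.256 and 0.225 in KO, 1.68-fold lower (-0.75 on the log2 scale, -0.51 without the first WT library). The first WT library held the highest Stag3 share of all STAG transcripts, 17.5% against 11.6% and 10.1% in the other WT libraries and 6.26%, 8.57% and 7.05% in KO. Adding 1 FPKM to both genes brought the log2 differences to -0.59 and -0.39, since Stag3 is itself only a few FPKM. For Stag3 per Stag1 the exact two-sided permutation p was then 0.2, and the genotypes no longer separated fully.

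Smc1a per Smc3, the ratio of the somatic SMC1 to the shared SMC3, was 0.362, 0.319 and 0.346 in WT and 0.234, 0.298 and 0.239 in KO, 1.34-fold lower (-0.42 on the log2 scale). With nothing added to the FPKM, each of these 5 ratios had all KO libraries below all WT libraries. Each had an exact two-sided permutation p of 0.1, also 0.1 after Benjamini-Hochberg adjustment over the 5. With 3 libraries against 3 that is the smallest p the design allows, so it cannot pass 0.05. Ratios of 55.5% of all pairs of tested genes likewise did not overlap between the genotypes, in either direction, so separation of any 1 ratio is common. The 5 ratios share genes and are not independent. No background was taken for their sizes, which are given as a description.

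**Figure D3:**
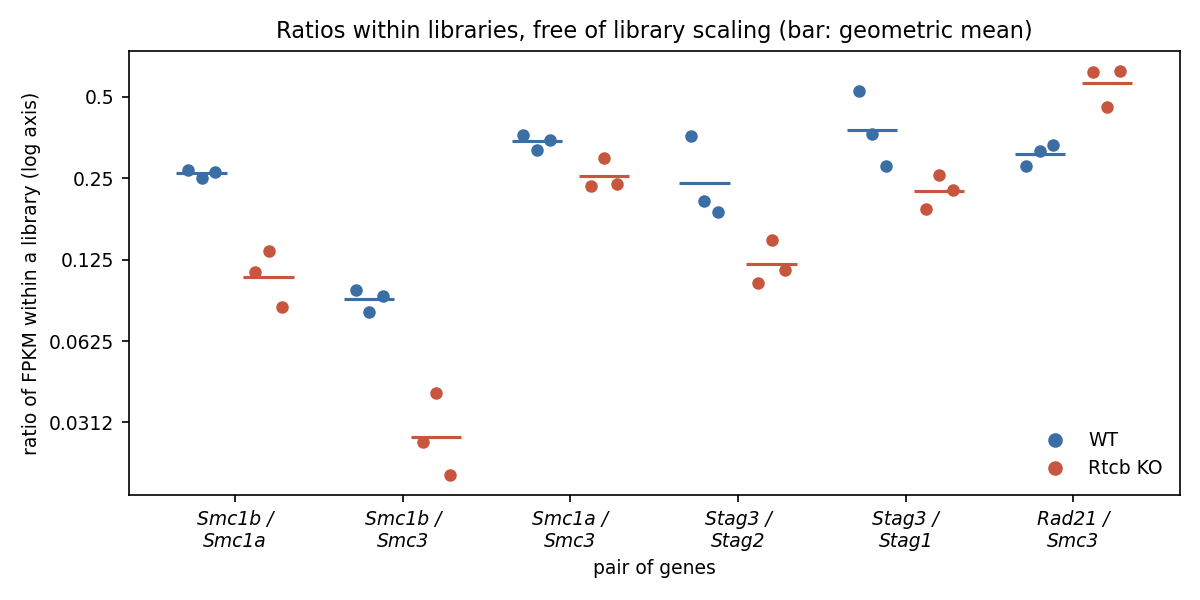
Within-library ratios of FPKM (log axis) for pairs of cohesin genes in 3 WT and 3 KO libraries, 1 point per library with a bar at the geometric mean. Smc1b per Smc1a lies between 0.251 and 0.267 in WT and between 0.0836 and 0.134 in KO.

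Further ratios, chosen after the values had been seen and given with no test, describe the kleisin. Rad21 per Smc3 was 0.277, 0.316 and 0.331 in WT and 0.620, 0.459 and 0.623 in KO, 1.83-fold higher. Rad21 per Smc1a was 0.764, 0.992 and 0.956 in WT and 2.64, 1.54 and 2.61 in KO, so that the mitotic kleisin transcript went from just under the level of Smc1a to above it. Summed SMC1 transcripts came to 45.9%, 39.9% and 43.8% of Smc3 in WT and to 26.1%, 33.8% and 25.9% in KO. Summed kleisin transcripts moved the other way, from 28.5%, 33.2% and 34.9% of Smc3 in WT to 68.2%, 48.1% and 64.8% in KO. The meiotic genes together (Smc1b, Stag3 and Rad21l, with Rec8 entering at its listed 0 here, in the kleisin sum and in the order below) made up 6.48% ± 0.501 of the transcripts of the 9 ring subunits in WT and 3.78% ± 0.951 in KO (SD, n = 3 each).

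The order of the levels, which FPKM allows since it is per length, also differed. In WT it ran Smc3, Smc1a, Rad21, Nipbl, Smc1b, Stag2, Stag1, Stag3, Rad21l, Rec8. Neighbours whose ranges over libraries overlapped were Smc1a and Rad21, Rad21 and Nipbl, Smc1b and Stag2, and Stag3 and Rad21l. In KO it ran Smc3, Rad21, Smc1a, Nipbl, Stag2, Stag1, Rad21l, Smc1b, Stag3, Rec8, and the ranges of Smc1a and Nipbl, of Stag1 and Rad21l, and of Rad21l and Smc1b overlapped. Smc1b thus went from the fifth place to the eighth. In WT, Smc3 lay above 83.5% of all tested genes, Smc1b above 39.4%, Stag3 above 13.2% and Rad21l above 8.07%.

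By Pearson correlation of log2(FPKM + 1) over the 6 libraries, among 6505 genes averaging 10 FPKM or more (predicted-gene, clone-named, microRNA and snoRNA symbols left out of the 7267 at that level), Eps8 and Rad18 ran closest to Smc1b (r = 0.999 each) and Mvd and Prickle3 closest to Stag3 (r = 0.998 each). These correlations share the same 6 libraries and largely follow the genotypes: 1734 genes had an r over 0.95 with Smc1b and 835 with Stag3. Rec8, constant at 0, has no correlation.

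Neighbouring genes are given because the sources used here do not state the strand setting of the counting. No member shared exonic bases with another gene of the table in GENCODE vM21. Longer gene models in RefSeq (GRCm38.p6) do overlap on opposite strands: the spans of Smc1b and Fam118a share 52892 bases and those of Smc1a and Ribc1 share 459 bases, while the GENCODE spans of either pair do not overlap. Fam118a went from 87.3 ± 4.94 to 43.8 ± 4.06 FPKM (SD, n = 3 each), with a log2 fold change of -0.98 (limma adjusted p = 0.000218), beside -1.90 for Smc1b. Ribc1 went from 57.5 ± 4.25 to 21.2 ± 1.58 FPKM, with a log2 fold change of -1.40 (limma adjusted p = 0.000162), beside -1.03 for Smc1a. Reads of such partners outside exons cannot be told apart without strand. Ribc2, which starts beside Smc1b in the opposite direction, was below the level for testing, at a mean of 0.697 FPKM in WT and 0.986 FPKM in KO.

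Transcript length moved with the fold change over all genes. Among the 89.8% of tested genes with a GENCODE length, split by length into 4 bins of near-equal size, the bin of shortest transcripts had a median log2 fold change of -0.32 with 43.0% lower, and the bin of longest had -0.56 with 60.7% lower. Smc1b, Rad21 and Stag3 fall in the bin of 2903 to 4423 bases (median -0.56, 58.7% lower), and Smc1a, Smc3, Stag1, Stag2 and Nipbl in the longest. Rec8 and Rad21l are shorter. The part of length in the members' values was not tested.

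The regulators of cohesin were lower in KO about as often as genes in general. Of 27 genes listed under cohesin loading, release, acetylation, protection, cleavage or boundaries, all 27 were tested. As deposited, 16 were lower (54.0% of all genes were), 2 were higher (9.29% of all genes were) and 9 did not pass. Their median log2 fold change was -0.42 against -0.47 for all genes. With the genotype factors removed 3 were lower and 10 higher, against 18.0% and 25.7% of all genes, with a median of 0.16 against 0.043. Beside each role below stands its count with the factors removed. Of the 18 called genes, 5 lost the call without at least 1 library.

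**Figure D4:**
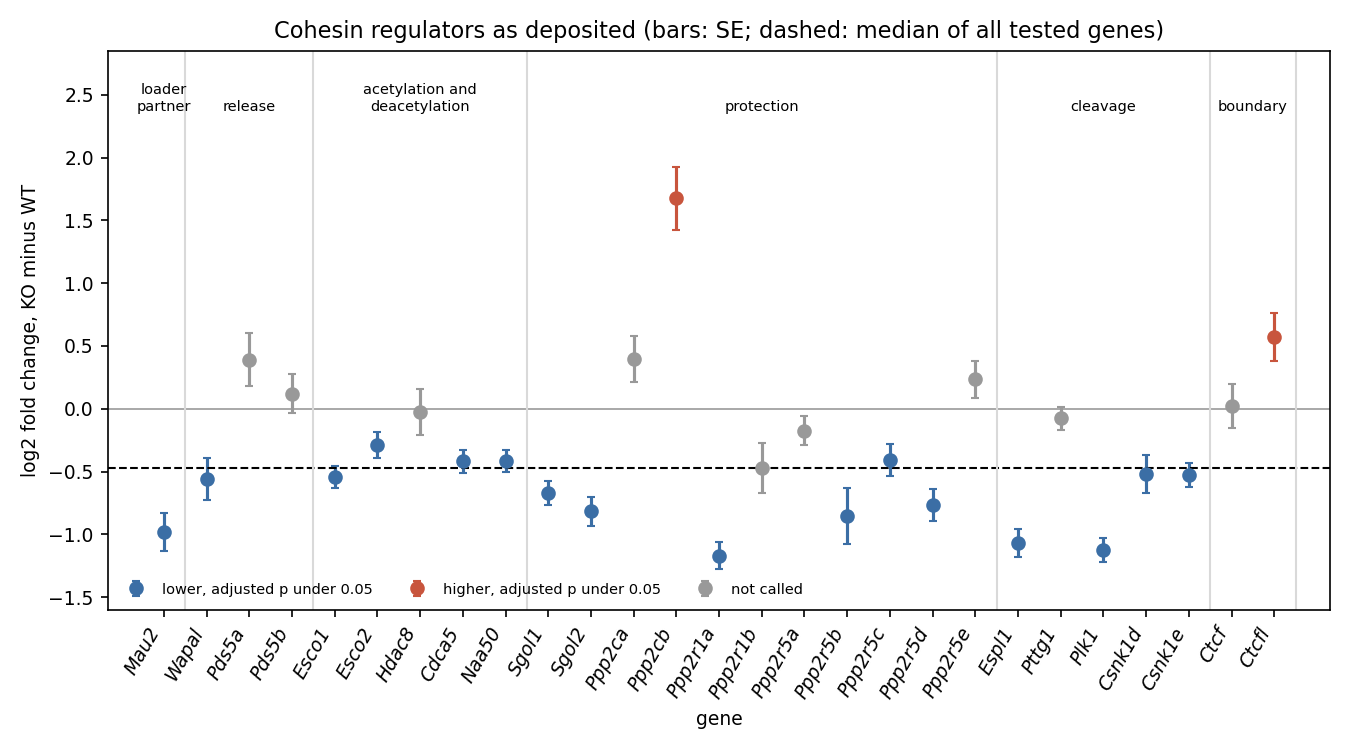
Log2 fold change of KO over WT on log2(FPKM + 1) for the 27 regulators of cohesin, ordered by role; bars are standard errors and the line marks the median of all tested genes, -0.47. Ppp2r1a, Plk1 and Espl1 are among the lowest, and Ppp2cb stands far above 0 at a level of a few FPKM.

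Loading and release genes came first by role. Mau2, the partner of NIPBL in the loader, went from 21.8 ± 3.91 to 10.5 ± 1.03 FPKM (SD, n = 3 each), with a log2 fold change of -0.98 (limma adjusted p = 0.000969), beside the -0.73 of Nipbl. With the factors removed its adjusted p was 0.0539. Of 3 release genes, Wapal (the releasing factor WAPL) was lower, at 47.8 ± 10.5 in WT and 31.7 ± 3.62 FPKM in KO (log2 fold change -0.56, adjusted p = 0.0191); its adjusted p was 0.0644 without KO library 1 and 0.0538 without KO library 3. With the factors removed its log2 fold change was 0.0073 (adjusted p = 0.977). The other 2 release genes did not pass as deposited and were both higher with the factors removed, with 0 lower.

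Of 5 genes listed under the role of acetylation and deacetylation, 4 were lower as deposited, and 0 were lower and 1 higher with the factors removed. Esco1, an acetyltransferase, went from 98.8 to 67.4 FPKM (log2 fold change -0.55, limma adjusted p = 0.00108). Cdca5 (sororin, which antagonises WAPL) went from 549 to 412 FPKM (-0.42, adjusted p = 0.00485), and Naa50 from 163 to 122 FPKM (-0.42, adjusted p = 0.00414). These 3 lost the call with the factors removed and stood at 0.032, 0.17 and 0.16 (adjusted p of 0.787, 0.174 and 0.161). Esco2, the other acetyltransferase, measured 341, 340 and 301 FPKM in WT and 300, 253 and 251 FPKM in KO (-0.29, adjusted p = 0.0369). This call was lost without WT library 1 or 2 or KO library 2 or 3 (adjusted p of 0.0879 to 0.122) and turned to higher with the factors removed (0.29, adjusted p = 0.0499).

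Of 11 protection genes, which hold off separase at centromeres, 6 were lower and 1 was higher as deposited, and 1 was lower and 4 higher with the factors removed. Sgol1 and Sgol2 encode the shugoshins, and SGO2 protects REC8 in meiosis. Sgol1 went from 42.3 ± 0.676 to 26.2 ± 1.36 FPKM (log2 fold change -0.67, limma adjusted p = 0.000625) and Sgol2 from 40.0 ± 3.98 to 22.2 ± 1.25 FPKM (-0.82, adjusted p = 0.000567). Neither passed with the factors removed, at -0.10 (adjusted p = 0.401) and -0.25 (adjusted p = 0.108). Ppp2r1a, the scaffold of the phosphatase PP2A that shugoshins recruit, went from 146 ± 17.3 to 63.9 ± 1.93 FPKM, 2.28-fold lower (-1.17, adjusted p = 0.000164), and it was also lower with the factors removed (adjusted p = 0.00382). Ppp2cb, a catalytic subunit of PP2A that is named here because its values had been seen, went the other way. It measured 0.185, 0.398 and 0.0819 FPKM in WT and 4.30, 1.80 and 2.92 FPKM in KO. It reached the filter of 1 FPKM through its KO libraries alone and so had to differ, and its call is no evidence about the group.

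Of 5 cleavage genes, 4 were lower as deposited, and 2 were lower and 1 higher with the factors removed. Espl1 encodes separase, which cuts the kleisin, and went from 29.6 ± 2.41 to 13.5 ± 0.405 FPKM, 2.18-fold lower (log2 fold change -1.07, limma adjusted p = 0.000217; with the factors removed adjusted p = 0.00901). Plk1, a kinase acting on cohesin, went from 399 to 182 FPKM (-1.12, adjusted p = 0.000162), and it too was lower with the factors removed (adjusted p = 0.0034). Pttg1 (securin, the inhibitor of separase) did not pass, at 4819 ± 237 in WT and 4568 ± 182 FPKM in KO (-0.077, adjusted p = 0.47), and its groups overlapped. It was called higher with the factors removed (0.51, adjusted p = 0.00411), as it was with equal totals (0.36, adjusted p = 0.00611) and median ratios (0.44, adjusted p = 0.0066). The difference between Espl1 and Pttg1 was not tested. Of 2 boundary genes, both higher with the factors removed, Ctcfl, also named with its values seen, was higher as deposited, from 2.93 to 4.75 FPKM (0.57, adjusted p = 0.0289). It lost the call without the first WT library or any 1 KO library (adjusted p of 0.0510 to 0.0775).

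Genes of the related SMC complexes are set beside the 54.0% of all genes lower and 9.29% higher. With the factors removed, the shares over all genes were 18.0% lower and 25.7% higher. Of 8 condensin genes, 6 were lower and 0 higher, with a median of -0.86, and 3 (Smc4, Ncapg and Ncaph) were lower with the factors removed, when 1 was higher. Smc4, an SMC subunit of condensin, went from 368 to 163 FPKM, 2.27-fold lower (log2 fold change -1.18, limma adjusted p = 0.000176), and Ncapg, a non-SMC subunit, from 241 to 97.8 FPKM, 2.47-fold lower (-1.30). These had the lowest fold changes of the list. Smc2, the other SMC gene of the list, went the other way, from 16.4 to 21.8 FPKM (0.39, limma adjusted p = 0.0683). It was the condensin gene called higher with the factors removed (0.91, limma adjusted p = 0.00366). Of 7 genes of the SMC5/6 complex, 6 were tested, 4 were lower and 0 higher (median -0.51), and Eid3 was listed at 0. With the factors removed 1 was lower and 1 higher, with a median of 0.070. The folds of Smc4 and Ncapg lie between that of Smc1a and that of Smc1b.

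Genes listed under the chromosome axis, on which meiotic cohesin sits, and the synaptonemal complex went both ways. Of 10 listed, 8 were tested, 4 were lower and 2 higher, with a median of -0.33, against 54.0% and 9.29% of all genes. With the factors removed 1 was lower and 3 higher, against 18.0% and 25.7% of all genes, with a median of 0.20. Sycp2, an axis protein gene, measured 22.2, 25.4 and 30.7 FPKM in WT and 6.73, 10.9 and 5.87 FPKM in KO (log2 fold change -1.65, limma adjusted p = 0.000496; with the factors removed -1.06, adjusted p = 0.00661). Sycp3, whose protein binds SYCP2, measured 30.4, 43.0 and 33.6 FPKM in WT and 107, 82.1 and 116 FPKM in KO (1.49, adjusted p = 0.000271). The other gene called higher, Hormad1, was named with its values seen and went from 1.20 to 5.41 FPKM. Sycp2, like Smc1b, fell, while Sycp3 rose, and the genotypes did not overlap for any of these 3 genes. Over all tested genes, 57.5% were lower without overlap and 10.2% were higher without overlap.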

How the data were processed

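Each library holds 10 oocytes lysed with ERCC spike-in RNA, amplified by Smart-seq2 and read as paired ends, per the labels' protocols. Per the submitters' processing notes, TopHat2 2.1.1, Cufflinks 2.2.1 and the mouse build mm9 were used; the sources used here name no annotation or strand setting. The deposited table gives FPKM for each gene symbol, which the authors scaled to the spike-ins, per the labels. A search over 427 fractions found 1 factor per genotype (2 in WT and 1.33 in KO, up to powers of 10) that returned 100% of values of at least 1 to 6 significant digits, against at most 76.8% for the next fraction.

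All 12029 genes averaging 1 FPKM or more were fitted with limma 3.58.1 (R 4.3.3) on log2(FPKM + 1), with eBayes and an intensity trend, two-sided, Benjamini-Hochberg over all of them, adjusted p under 0.05; the script was tested on simulated data. Ratios were compared by exact permutation. Alternatives changed the pseudocount, filter, scaling, trend, replicate block and libraries. The members and lists were chosen with earlier results of these data known. All 10 members are named; of the other lists, those averaging 10 FPKM or more that passed may be named, and exceptions are marked, along with genes that did not pass and are given as values. Motifs, promoters and gene models come from RefSeq GRCm38.p6 and GENCODE vM21, used for sequence, lengths and overlaps only and not joined to mm9 positions. Rad21, Stag2 and Nipbl have no promoter entry.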

Additional observations from a re-analysis of the deposited data

How the results depend on the processing

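The calls of the cohesin genes depended mainly on the scaling. Members called lower numbered 5 as deposited, 2 with equal library totals, 2 with median-ratio scaling, 1 with the genotype factors removed and 3 with a mean of at least 10 FPKM, a filter that drops Smc1b, Rad21l and the 3 Stag genes from the test by construction. Members called higher numbered 0 as deposited and 1 under each of the 3 other scalings, Rad21 in each case. Over all genes, calls went from 6501 lower and 1118 higher to 3107 and 2283 (equal totals), 2606 and 2746 (median ratio) and 2161 and 3097 (factors removed). At a mean of at least 10 FPKM, 4694 of 7267 genes were lower and 490 higher. With no filter, 6625 of 18553 were lower and 1161 higher. Regulators called lower went from 16 to 5, 4 and 3 under those scalings in the same order, and regulators called higher from 2 to 7, 8 and 10, with 1 when no filter was used and 0 with a mean of at least 10 FPKM. Leaving out each library gave 1 to 3 regulators higher. The genes of condensin, SMC5/6, the axis and the synaptonemal complex called lower went from 14 to 6, 6 and 5. Those called higher went from 2 to 4 (median ratio) and 5 (factors removed), with 1 at a mean of at least 10 FPKM. Stag1 reversed to 0.048, 0.12 and 0.16 and Stag2 to 0.28, 0.35 and 0.40 under the 3 scalings, and Stag2 ranged from -0.20 to 0.042 with each library left out, the latter without the second KO library. The causes were not tested. Leaving out any 1 library left 5 members lower and 0 higher. Over all genes, 5587 to 6234 were then lower and 769 to 1360 higher, of 11974 to 12066 tested.

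The sources used here do not say whether the replicate numbers pair the libraries. Over genes, deviations of same-numbered libraries correlated at 0.14, -0.099 and 0.038, against -0.24 to 0.17 for the others. Not every library correlated best with its own number. Deviations from a mean of 3 libraries are tied to each other, so these values cannot settle the pairing. With the replicate number as a block, 5 members were lower and 0 higher, 17 regulators lower and 3 higher, and all genes gave 6432 and 1108 calls; for the ratios the block left the differences as they were (-1.27 for Smc1b per Smc1a, -1.69 for Smc1b per Smc3), with an exact sign-flip p of 0.25, the smallest that 3 pairs allow. The planned ratio of Rec8 to Rad21 could not be computed, so 5 ratios were tested. Depth is unknown, so no counting limit can be set for Rec8.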
